A study of Mus musculus with 12 samples.

Results

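White fat from the epididymal pad (eWAT), a visceral depot of male mice, was compared between wild-type (WT) mice on a high-fat diet (HFD_WT) and wild-type mice on a normal diet (ND_WT). The comparison used 6 of the 12 RNA-sequencing libraries of the series, 3 per diet, and every gene that reached 0.5 CPM in at least 3 of the 12 libraries. CPM is the number of reads of a gene for every 1000000 reads counted in its library. This kept 15597 of the 25232 listed genes. The filter did not use the diet labels, but a group holds 3 libraries, so a gene could pass through its level in a single group.

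All mice were C57BL/6. The ND_WT and HFD_WT groups carried the genotype labelled WT and differed by diet. The other 6 libraries came from mice labelled TET KO (TKO here), 3 on each diet (ND_TKO and HFD_TKO), in which, per the series title, TET proteins were ablated in adipocytes. TET enzymes oxidise methylated cytosines, a step in the removal of DNA methylation. The sources used here do not give the promoter that drove the deletion, the age of the mice, the composition and length of the diets or the hour of collection. The protocols call the replicates of a group biological. Fat was sequenced as whole tissue, so each value averages adipocytes with macrophages, lymphocytes, vessels, stroma and mesothelium.

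White fat stores triglyceride in adipocytes, which take up glucose and fatty acids under insulin and release fatty acids when catecholamines act on β-adrenergic receptors. On a high-fat diet the visceral pad enlarges, adipocytes reach a size at which many die, and macrophages gather around the dying cells, take up their lipid and digest it in lysosomes. Matrix is laid down in the pad, stromal and immune cells divide, and the hormone output of the fat changes, with more leptin and less adiponectin.

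Library totals lay between 20973140 and 25606629 reads, at which 3 reads, the limit that a count of 0 allows, correspond to 0.117 to 0.143 CPM (counting error only). The tissue label was met by the adipocyte markers: all 24 genes of that list passed the filter, and their summed level was 91137 to 107208 CPM in ND_WT and 42608 to 45669.8 CPM in HFD_WT. Of 16 genes of epididymis and testis 10 had no read in these 6 libraries, and the summed level of the list was 0.468 to 3.25 CPM in ND_WT and 0.280 to 0.743 CPM in HFD_WT. In a principal component analysis of the 6 libraries, component 1 (83.9% of the variance) placed the HFD_WT libraries at 53.8 to 54.6 and the ND_WT libraries at -60.2, -58.4 and -44.3. ND_WT replicate 3 stood apart. On component 2 (7% of the variance) it lay at -30.5 and the other ND_WT libraries at 11.2 and 15.2. Of the 2684 genes called at 2-fold or more, this library was the ND_WT library nearest to the HFD_WT mean for 1591 (59.3%), against 486 (18.1%) and 607 (22.6%) for replicates 1 and 2. The 10 genes with the most reads took 14.9% to 16.8% of the reads in ND_WT and 6.99% to 7.30% in HFD_WT, a difference that bears on the scaling of all other genes.

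HFD raised immune, lysosomal, matrix, sterol and cell cycle genes and lowered genes of mature adipocytes, lipid synthesis and mitochondria in WT fat. Changes are given as log2 differences, HFD_WT minus ND_WT, on the log2(CPM + 1) scale with their standard error (SE), where 1 is a 2-fold rise and -1 a 2-fold fall in CPM + 1. Adjusted p-values are from limma, and a gene is called higher or lower at an adjusted p under 0.05. In total 9065 genes (58.1% of those tested) were called, 5892 (37.8%) higher and 3173 (20.3%) lower. These shares are the background for the counts of every gene list below. A change of 2-fold or more was called for 1972 genes (12.6%) that were higher and 712 (4.56%) that were lower. The HFD_WT and ND_WT values did not overlap for 10207 genes (65.4%). The median change over all tested genes was 0.13, and 90% of the genes lay between -0.95 and 1.76. When the CPM were rescaled by trimmed mean (TMM) factors, the median change over all tested genes moved by -0.14, to -0.01. With these factors 4550 genes (29.2%) were higher and 4395 (28.2%) lower, 1647 (10.6%) and 935 (5.99%) of them at 2-fold or more. Genes higher on HFD thus made up 65% of the calls on the CPM scale and 50.9% with TMM scaling. Without ND_WT replicate 3, 5953 genes were higher and 3185 lower, 2159 and 798 of them by at least 2-fold. Where a gene list below is given with no member called in one direction by limma, it also had none at an unadjusted p under 0.05, by edgeR or by DESeq2, except that the interferon and the Toll-like receptor lists each had 1 lower member by each of these 3 measures.

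**Figure D1:**
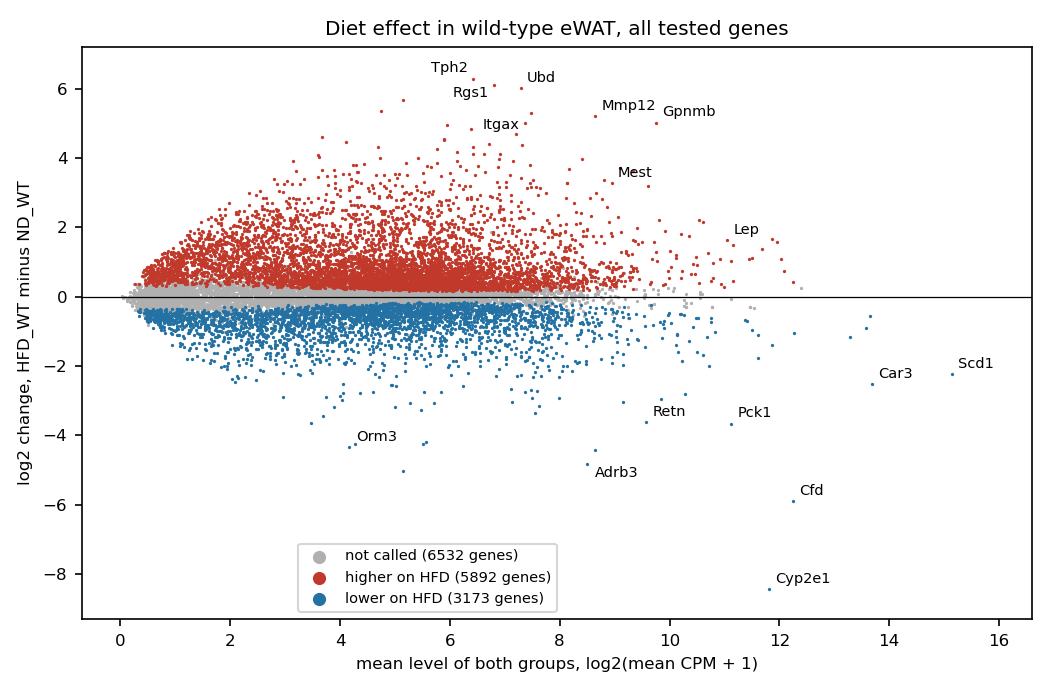
Diet effect of each of the 15597 tested genes in WT eWAT. The x axis is the log2 of the mean CPM of both groups plus 1, and the y axis the log2 change on the log2(CPM + 1) scale, HFD_WT minus ND_WT, 3 libraries per group; red points are the 5892 genes called higher, blue points the 3173 called lower and grey points the rest. Cyp2e1 and Cfd lie far below the other abundant genes, and Tph2, Rgs1 and Ubd at the top.

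Most of the 12 largest rises began from low levels in fat on the normal diet. Tph2, which encodes the tryptophan hydroxylase best known from serotonin neurons (chromosome 10 from 115078641 to 115185022 bp in mm10), stood at 0.382, 0.600 and 3.51 CPM in ND_WT replicates 1 to 3 and at 179, 168 and 154 CPM in HFD_WT (log2 change 6.28, SE 0.63, adjusted p = 5.0e-06). All HFD_WT libraries lay far above the ND_WT libraries, of which replicate 3 was the highest. Rgs1, a brake on G-protein signalling in lymphocytes and other leukocytes, rose from 2.15 ± 0.251 to 219.8 ± 42.9 CPM (change 6.11, SE 0.34, adjusted p = 4.7e-08), and Ubd, a ubiquitin-like protein induced by inflammatory cytokines, from 3.82 ± 0.5 to 308 ± 18.6 CPM (change 6.01, SE 0.26, adjusted p = 1.3e-08). Group values are means ± SD with n = 3 throughout. Further genes among the 12 largest rises belong to macrophages: Gpnmb, Mmp12, Itgax and Atp6v0d2, described with those cells below, and Itgad, an integrin subunit of macrophages in lipid-rich tissue, with 0.477, 0.185 and 0.502 CPM in ND_WT and 70.1, 68.9 and 67.8 CPM in HFD_WT. Itgad overlaps the long noncoding gene 4931431B13Rik, which moved the same way, so its reads are partly uncertain. Myh15, a myosin heavy chain gene, rose by 5.34, to 51.6 CPM from a mean of 0.294 CPM in ND_WT, with no read in replicate 3. Zranb3, which encodes an annealing helicase of stalled replication forks, rose by 4.95, from 2.90 to 119 CPM. It overlaps a long noncoding gene and pseudogenes that have no values here. Slc5a7, the choline transporter gene of cholinergic neurons, was spread within ND_WT, at 1.76, 1.11 and 25.6 CPM, and reached 177, 175 and 116 CPM in HFD_WT (change 4.84, SE 0.80, adjusted p = 0.00026). The immediate early gene Fos varied within both groups, at 19.6, 2.77 and 8.62 CPM and 303, 448 and 92.4 CPM (change 4.69, SE 0.86, adjusted p = 0.00058), and the groups still did not overlap.

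The 12 largest falls included genes abundant in lean fat, such as Cyp2e1 and Cfd, and less abundant ones. Cyp2e1, a cytochrome P450 gene of adipocytes and liver (chromosome 7 from 140763819 to 140774990 bp), stood at 7558, 10777 and 3094 CPM in ND_WT and 28.5, 16.9 and 10.6 CPM in HFD_WT (log2 change -8.43, SE 0.42, adjusted p = 2.9e-08), a ratio of group means of 382. Cfd, which encodes adipsin, a complement protease secreted by adipocytes (chromosome 10 from 79890853 to 79892655 bp), stood at 10483, 13059 and 5225 CPM and 157, 123 and 176 CPM (change -5.89, SE 0.47, adjusted p = 7.2e-07), with means 63.2 times apart. For both genes ND_WT replicate 3 held the lowest level of its group and still lay many times above every HFD_WT library. Fam13a, a gene tied to fat distribution in human genetics, fell from 767 ± 429 to 30.3 ± 2.14 CPM (change -4.43, SE 0.46, adjusted p = 6.9e-06). Pck1, the phosphoenolpyruvate carboxykinase that makes the glycerol backbone of triglyceride in fat, fell from 4124 ± 974 to 319 ± 18.8 CPM (change -3.66, SE 0.17, adjusted p = 1.8e-08). Cyp2f2, another cytochrome P450 gene, fell too (log2 change -5.04), as did Orm3, an orosomucoid gene (-4.34), and Tmem88b (-3.64). Acsm3, a medium-chain acyl-CoA synthetase gene, fell (-4.25) and overlaps Eri2, and 2010016I18Rik fell (-4.24) and overlaps Dennd2d. Eri2 and Dennd2d were also lower, with changes of -1.87 and -3.26, so these reads cannot be assigned with certainty. The other large falls, Adrb3 and Retn, belong to the adipocyte genes.

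Of the 24 tested mature adipocyte genes 20 were lower and 1, leptin, was higher, against 20.3% lower and 37.8% higher over all genes; 14 fell by at least 2-fold. The median of the list was -1.14, and -1.30 with TMM scaling. The summed level of the macrophage list, of which 19 of 20 members were higher, was 1274 to 1831 CPM in ND_WT and 8859 to 9568 CPM in HFD_WT, and its part in the lower adipocyte values was not tested. In whole tissue, fewer adipocytes among the cells and less of a transcript per adipocyte cannot be told apart. Adipoq, the adiponectin gene (chromosome 16 from 23146536 to 23157968 bp), stood at 5025, 5106 and 4437 CPM in ND_WT and 1436, 1349 and 1501 CPM in HFD_WT (log2 change -1.76, SE 0.16, adjusted p = 2.1e-06). Slc2a4, which encodes the insulin-responsive glucose transporter GLUT4 (chromosome 11 from 69942286 to 69948216 bp), stood at 280.4, 219.6 and 215 CPM and 35.7, 34.3 and 39.8 CPM (change -2.66, SE 0.14, adjusted p = 3.3e-08). The groups were far apart in both genes. Retn, which encodes resistin, a hormone that rodents make in adipocytes (chromosome 8 from 3655770 to 3659818 bp), fell from 1408 ± 92.2 to 114 ± 18.2 CPM (change -3.63, SE 0.15, adjusted p = 1.1e-08). Car3, a carbonic anhydrase gene that is a hallmark of lean rodent fat, fell from 22316 ± 1972 to 3901 ± 312 CPM and Nnat, which encodes the small membrane protein neuronatin, from 1619 ± 149 to 213 ± 51.2 CPM, but Nnat lies within Blcap, which stood at 158.8 CPM in ND_WT and 66.2 CPM in HFD_WT. The master regulator of adipocyte identity, Pparg (chromosome 6 from 115360879 to 115490404 bp), changed less than most of the list: it stood at 266, 293 and 250.2 CPM and 175, 162 and 172 CPM (change -0.66, SE 0.11, adjusted p = 0.00020), with no overlap. Cd36, the fatty acid translocase gene, which macrophages also express, stood at 4958 ± 128 CPM in ND_WT and 5865 ± 20.7 CPM in HFD_WT and was not called (change 0.24, adjusted p = 0.11), and neither was Gpd1, the glycerol-3-phosphate dehydrogenase gene (0.17, adjusted p = 0.34).

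Leptin went the other way. Lep, whose hormone signals the size of the fat store to the brain (chromosome 6 from 29060221 to 29073876 bp), stood at 689, 495 and 2588 CPM in ND_WT and 3095, 3098 and 2709.9 CPM in HFD_WT (log2 change 1.62, SE 0.47, adjusted p = 0.011). The HFD_WT libraries lay close together, while ND_WT replicate 3 lay near them and far above the other ND_WT libraries. Without that library the change was 2.34 (adjusted p = 1.0e-05). With all libraries the change of Lep did not pass in edgeR (1.08, adjusted p = 0.081) or DESeq2 (1.09, adjusted p = 0.11), so its call rests on the log-scale test.

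**Figure D2:**
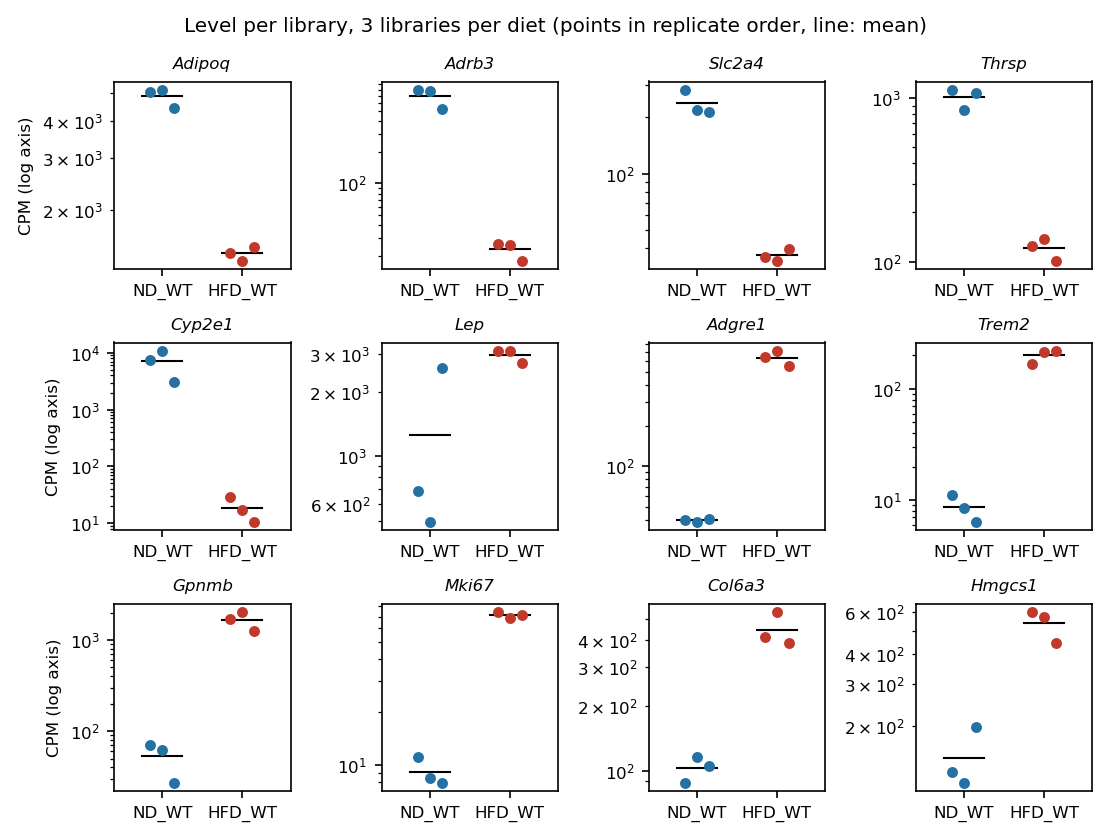
Level of 12 genes in each of the 6 WT libraries, in CPM on a log axis that differs between panels, with points in replicate order and a line at the mean of each group of 3. The ND_WT and HFD_WT libraries do not overlap in any of the 12 panels, as for 65.4% of all tested genes, and for Lep the ND_WT replicate 3 lies close to the HFD_WT libraries.

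Genes that make fatty acids and triglyceride were lower on HFD. Of 24 tested genes 15 were lower and 1 was higher (median -0.82), 62.5% and 4.2% beside 20.3% and 37.8% of all genes. Scd1, the stearoyl-CoA desaturase gene that took more reads than any other gene in both groups, stood at 63476, 55115 and 59748 CPM in ND_WT and 12911, 11805 and 13163 CPM in HFD_WT (change -2.23, SE 0.26, adjusted p = 1.7e-05). Its adjusted p was 0.091 when no genes were filtered out, the change being the same. Thrsp, a small nuclear protein that follows lipogenesis (chromosome 7 from 97412933 to 97417550 bp), stood at 1119, 848 and 1072 CPM and 126, 138 and 102 CPM (change -3.05, SE 0.15, adjusted p = 2.4e-08). Both genes were lower in each HFD_WT library than in any ND_WT library. Both acetyl-CoA carboxylase genes, which commit acetyl-CoA to fatty acids or to the control of their oxidation, fell: Acaca from 919 ± 421 to 214 ± 12.9 CPM (change -1.97, SE 0.32, adjusted p = 0.00022) and Acacb from 357 ± 157 to 36.5 ± 3.62 CPM (change -3.14, SE 0.29, adjusted p = 2.8e-06). Fasn, the fatty acid synthase gene (chromosome 11 from 120805958 to 120825166 bp), stood at 3259.7, 2081 and 1972 CPM and 1266, 1586 and 808 CPM (change -1.01, SE 0.26, adjusted p = 0.0053); ND_WT replicates 1 to 3 were spread and still all above HFD_WT. Mlxipl, which encodes a carbohydrate-sensing transcription factor, fell (log2 change -1.71), as did Mogat1, a monoacylglycerol acyltransferase gene (-2.75). The elongase gene Elovl3 was the member that rose, from a mean of 0.0623 CPM, under the level of 3 reads, to 1.27 ± 0.130 CPM.

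Of 21 tested β-adrenergic and lipolytic genes 13 were lower and 1 was higher (median -0.49), 61.9% and 4.8% beside 20.3% and 37.8% of all genes. Adrb3 encodes the β3-adrenergic receptor, the main receptor for catecholamines on mouse adipocytes (chromosome 8 from 27225776 to 27230845 bp). It stood at 791, 766 and 525 CPM in ND_WT and 26.2, 25.6 and 18.1 CPM in HFD_WT, a ratio of means of 29.7 (change -4.83, SE 0.23, adjusted p = 2.4e-08). Each HFD_WT library lay more than 10 times below the lowest ND_WT library. Downstream of the receptor, the triglyceride lipase gene Pnpla2 (chromosome 7 from 141455188 to 141460743 bp) stood at 2858, 3101 and 2114 CPM and 679, 681 and 625 CPM (change -2.0, SE 0.15, adjusted p = 4.0e-07) and the hormone-sensitive lipase gene Lipe fell from 2375 ± 44.5 to 746 ± 30.1 CPM (change -1.67, SE 0.15, adjusted p = 2.5e-06). Lipe overlaps a noncoding gene, 4732471J01Rik, whose mean went from 795 to 261 CPM. Pde3b, the phosphodiesterase by which insulin restrains lipolysis, fell from 671 ± 103 to 189.8 ± 13.9 CPM, and Plin1, which guards the droplet from lipases, from 1303 ± 131 to 565 ± 19.1 CPM. Adcy3, an adenylyl cyclase gene, rose from 31.3 ± 4.67 to 69.2 ± 4.15 CPM (change 1.13, SE 0.14, adjusted p = 3.0e-05).

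Fatty acid uptake and oxidation genes split, with 15 of 30 lower and 7 higher (median -0.22). The fatty acid transporter gene Slc27a1 fell from 528 ± 220.0 to 183 ± 31.1 CPM and the peroxisomal bifunctional enzyme gene Ehhadh from 85.1 ± 34.8 to 27.8 ± 4.79 CPM. Among the members that rose, Cpt1a, the gate of fatty acids into mitochondria in liver and other tissues, went from 101 ± 21.3 to 253 ± 8.75 CPM and Fabp5, a fatty acid binding protein also made by macrophages, from 153 ± 22.2 to 429 ± 41.0 CPM. Acyl-CoA synthetases, which trap fatty acids in the cell, differed among themselves: Acsl3, Acsl4 and Acsl5 rose by 0.76, 0.88 and 0.87, whereas Acsl1, the main form in fat (chromosome 8 from 46471037 to 46536051 bp), stood at 2526, 2525 and 1797 CPM in ND_WT and 2337, 2186 and 1956 CPM in HFD_WT and did not pass (change -0.07, SE 0.16, adjusted p = 0.75). Droplet coats differed too. Of 12 tested lipid droplet genes 6 fell, among them Cidec from 4263 to 1979 CPM and Plin4 from 6649 to 3233 CPM, both of adipocyte droplets, while Plin2, the coat of small droplets in most cells, rose from 315 ± 10.8 to 1479 ± 123 CPM (change 2.22, SE 0.18, adjusted p = 9.3e-07). Hilpda, a hypoxia-induced inhibitor of Pnpla2's enzyme, rose from 6.97 ± 0.436 to 23.6 ± 1.95 CPM.

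Mitochondrial genes fell by smaller amounts and across many members. Of 31 nuclear genes of oxidative phosphorylation 24 were lower and 1, Atp5g1, higher (median -0.51, lowest change -0.86). With TMM scaling the count lower was 28 and Atp5g1 was no longer called (change 0.27, adjusted p = 0.098), nor was it in edgeR or DESeq2 (adjusted p = 0.1 in both). Ndufv1, which encodes the NADH-binding subunit of complex I (chromosome 19 from 4007499 to 4012755 bp), stood at 169.8, 169 and 169 CPM and 98.4, 99.4 and 97.1 CPM (change -0.78, SE 0.06, adjusted p = 8.6e-07), without overlap. Sdha, which encodes the catalytic subunit of complex II, fell (log2 change -0.81), and so did Ndufa4 (-0.86). The core GCGCATG of nuclear respiratory factor 1, searched on both strands in promoters from 250 bases before to 50 bases after the RefSeq start, was in 5 of 22 list genes with an entry (22.7%) and in 7.13% of all genes with one. The ETS core GGAAGTG was in 4 of 22 (18.2%) and 16.1%. Of genes lower by at least 2-fold 3.47% held GCGCATG and 12.2% GGAAGTG, and of genes higher by as much 4.91% and 16.7%. Of 23 genes of the citrate cycle and pyruvate entry 19 were lower (median -0.55), with Pcx, the pyruvate carboxylase gene, going from 1549 ± 301 to 708 ± 56.8 CPM (change -1.11, SE 0.14, adjusted p = 3.8e-05). The kinases that switch off pyruvate dehydrogenase diverged: Pdk2 fell from 162 to 44.1 CPM, and Pdk4, the form raised by fatty acids, rose from 54.2 to 153 CPM (change 1.5, SE 0.25, adjusted p = 0.00026). The adipocyte marker sum was lower in the same libraries, and its part in the lower lipid and mitochondrial values was not tested.

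Breakdown of the branched-chain amino acids leucine, isoleucine and valine, which adipocytes use as a source of acetyl-CoA, was the metabolic list with the lowest median (-1.25, -1.41 with TMM scaling). Of 21 genes 19 were lower, along the whole route. Bcat2, the mitochondrial transaminase gene of the first step, stood at 339, 353 and 223 CPM in ND_WT and 66.9, 68.8 and 62.1 CPM in HFD_WT (change -2.16, SE 0.14, adjusted p = 1.8e-07). Bckdha, of the dehydrogenase complex that commits the carbon skeletons, fell from 204 to 70.1 CPM. Ivd, of leucine breakdown, fell from 363 to 82.3 CPM and Hibch and Aldh6a1, of valine breakdown, from 219 to 68.5 CPM and from 784 to 205 CPM. Aldh6a1 overlaps Bbof1, which went from 76.1 to 22.0 CPM. The member that rose was Bcat1, the cytosolic transaminase found in macrophages and dividing cells, from 7.76 ± 6.49 to 22.9 ± 4.81 CPM (change 1.67, SE 0.38, adjusted p = 0.0025).

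Insulin signalling genes moved in both directions. Of 21 tested genes 13 were lower and 6 higher (median -0.53), 61.9% and 28.6% beside 20.3% and 37.8% of all genes. Among signal carriers and glycogen enzymes, Irs1 fell from 57.2 to 13.8 CPM, the glycogen synthase gene Gys1 from 166 to 58.4 CPM and the glycogen phosphorylase gene Pygl from 309 to 89.6 CPM. Among inhibitors, Socs3, a suppressor of cytokine and insulin signalling, rose from 8.01 ± 1.28 to 44.3 ± 20.9 CPM (change 2.22, SE 0.35, adjusted p = 0.00020) and Ptpn1, the phosphatase of the insulin receptor, by 1.08 on the log2 scale. The signal carriers Tbc1d1 and Akt1 also rose, by 1.37 and 0.65.

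Secreted factors of fat split, with 10 of 19 tested higher and 7 lower, 52.6% and 36.8% beside 37.8% and 20.3% of all genes. Beside Cfd, Retn and Adipoq, the angiotensinogen gene Agt fell from 340.2 ± 124 to 30.9 ± 0.228 CPM (change -3.35, SE 0.28, adjusted p = 9.7e-07) and the retinol-binding protein gene Rbp4 from 562 to 153 CPM. Ccn5, which encodes a secreted WNT-induced protein, rose from 6.85 ± 6.91 to 22.5 ± 1.34 CPM. Of 14 tested genes of fat expansion and caveolae 5 were higher and 4 lower, a share close to the background; 8 were higher without ND_WT replicate 3. Mest, an imprinted gene whose level follows the growth of fat (chromosome 6 from 30733506 to 30748466 bp), stood at 66.2, 47.5 and 221 CPM and 858, 813 and 951 CPM (change 3.28, SE 0.45, adjusted p = 6.8e-05). ND_WT replicate 3 lay above the other ND_WT libraries and below all HFD_WT libraries. Mest overlaps Copg2, which rose from 121.6 to 504 CPM, so the reads of these genes are uncertain. Plagl1, another imprinted gene, fell from 99.6 to 23.7 CPM, and Cav1, the main caveolin gene, from 3269 to 2024 CPM.

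Cholesterol synthesis genes were higher, unlike the genes of fatty acid and triglyceride synthesis. Of 20 tested genes 17 were higher and none lower (median 1.11). Hmgcs1, which encodes the synthase of the first committed block of the pathway, stood at 129, 117 and 198 CPM in ND_WT and 598, 572 and 446 CPM in HFD_WT (change 1.88, SE 0.29, adjusted p = 0.00015). ND_WT replicate 3 was the highest of its group and below every HFD_WT library. Dhcr7, the last enzyme of the route, rose from 10.8 ± 2.65 to 56.3 ± 14.3 CPM, Insig1, the sterol-sensing brake of the pathway, from 105 ± 19.0 to 371 ± 51.4 CPM, and Mvd by 1.32 on the log2 scale. For storage and efflux, 8 of 15 genes were higher, 53.3% beside 37.8% of all genes, and 3 lower, 20.0% beside 20.3% (5 lower with TMM scaling). Soat1, which esterifies cholesterol for storage, rose from 12.4 ± 0.946 to 114 ± 9.07 CPM (change 3.10, SE 0.20, adjusted p = 1.3e-07) and Lipa, the lysosomal acid lipase gene, from 89.8 ± 13.8 to 714 ± 34.7 CPM (change 2.99, SE 0.13, adjusted p = 1.4e-08). Apoe and Apoc1, apolipoprotein genes of neighbouring loci, fell from 3812 to 1985 CPM and from 193 to 43.7 CPM.

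**Figure D3:**
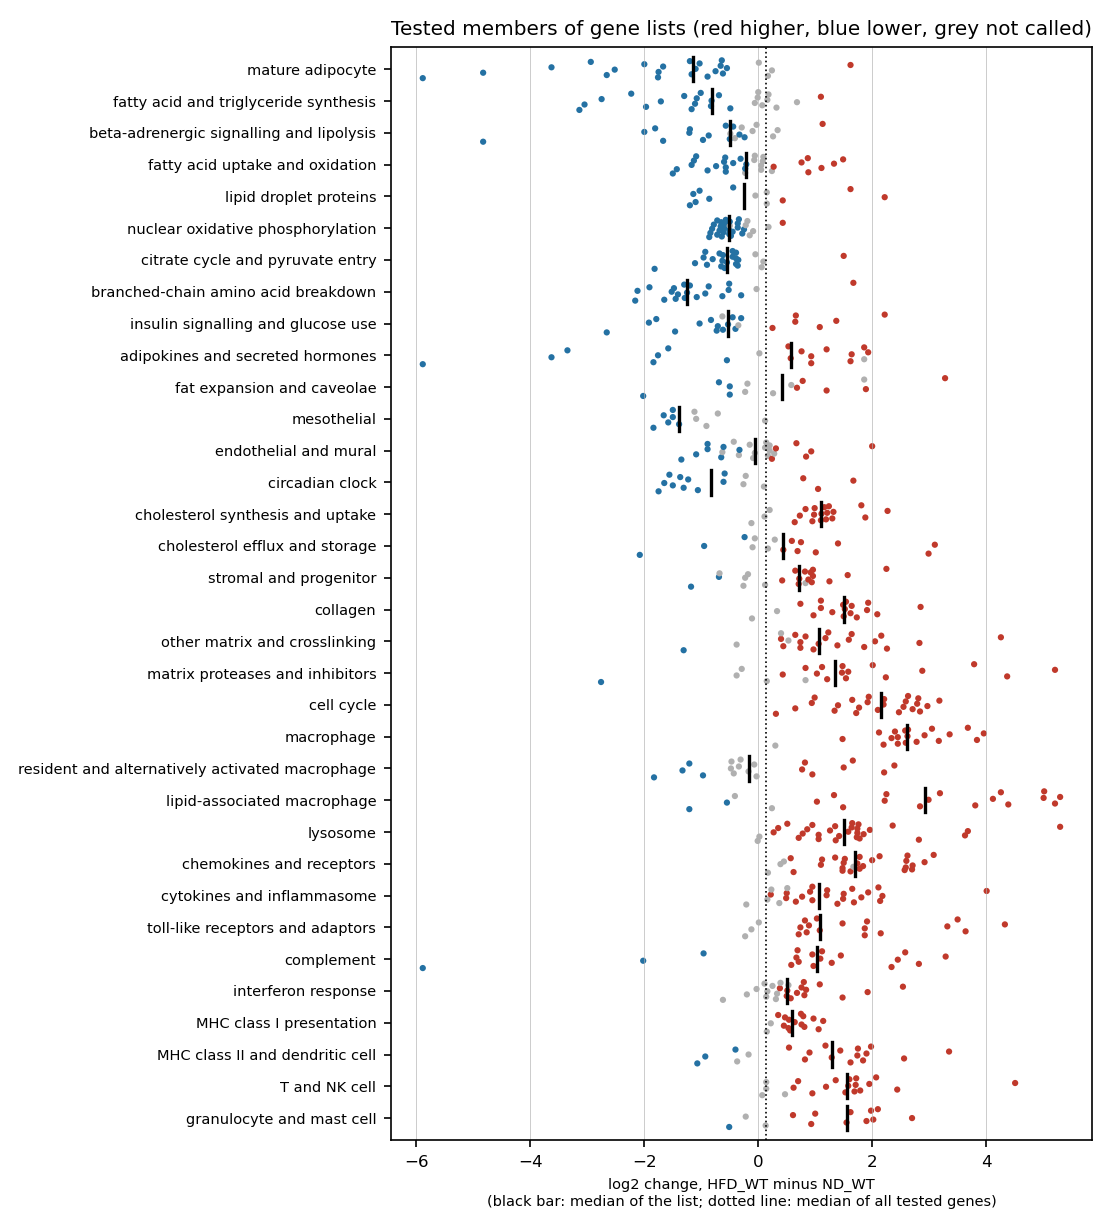
Log2 change, HFD_WT minus ND_WT, of each tested member of 34 gene lists (points; red higher, blue lower, grey not called), with the median of each list as a black bar and the median of all tested genes, 0.13, as a dotted line. The medians of the mature adipocyte, lipid synthesis, lipolysis, oxidative phosphorylation and citrate cycle lists lie left of the dotted line, and those of the macrophage, lysosome, cell cycle and collagen lists right of it.

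Macrophage genes were higher together. Of 20 tested genes 19 were higher and none was lower, with a median of 2.61. Adgre1, which encodes the F4/80 surface protein (chromosome 17 from 57358581 to 57483529 bp), stood at 39.7, 38.8 and 40.6 CPM in ND_WT and 642, 715 and 549 CPM in HFD_WT, a ratio of means of 16 (change 3.96, SE 0.18, adjusted p = 1.8e-08). The ND_WT libraries were within 2 CPM of each other, and ND_WT replicate 3 did not stand apart. Cd68, a glycoprotein gene of macrophage lysosomes, rose from 40.6 ± 3 to 531 ± 44.9 CPM, Ms4a7 from 6.11 ± 0.324 to 101 ± 9.91 CPM and Mpeg1, a pore-forming protein gene, from 78.7 ± 11.7 to 811 ± 79.9 CPM. The member not called was Lyz1, at 57.1 ± 28.4 CPM in ND_WT and 65.7 ± 6.24 CPM in HFD_WT (0.30, adjusted p = 0.35), which shares much of its sequence with Lyz2. Without ND_WT replicate 3, Lyz1 was called higher too (0.67, adjusted p = 0.0044), and all 20 genes were.

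Genes of resident and alternatively activated macrophages moved in both directions. Of 19 tested genes 7 were higher and 4 lower, shares of 36.8% and 21.1% near the 37.8% and 20.3% of all genes, and the median was -0.17. Folr2 and Mrc1, receptors of tissue macrophages, rose from 33.9 ± 9.29 to 179 ± 23.2 CPM and from 81.3 ± 34.0 to 354 ± 12.4 CPM. Cd163, the haemoglobin scavenger receptor gene (chromosome 6 from 124304636 to 124330529 bp), stood at 59.5, 93.7 and 105 CPM and 55.9, 59.9 and 63.4 CPM and was not called (change -0.48, adjusted p = 0.089). Cd163 was called lower with TMM scaling (-0.64, adjusted p = 0.021), with the replicate number as a block (-0.48, 0.045), in edgeR (-0.69, 0.017) and DESeq2 (-0.68, 0.0038) and without ND_WT replicate 1 (-0.72, 0.014). Retnla, a secreted product of macrophages under interleukin-4, fell from 318 ± 187 to 87.2 ± 47.4 CPM (change -1.83, SE 0.37, adjusted p = 0.0013) and the lectin gene Mgl2 from 37.9 ± 11.9 to 14.0 ± 0.485 CPM.

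The lipid-associated macrophage list, named for the cells that surround dead adipocytes, had the highest median of all lists, 2.92, with 16 of 20 genes higher. Trem2, the lipid receptor that defines these cells (chromosome 17 from 48346401 to 48352276 bp), stood at 11.2, 8.44 and 6.43 CPM in ND_WT and 168, 213 and 219 CPM in HFD_WT (change 4.39, SE 0.31, adjusted p = 2.7e-07). Itgax, which encodes the integrin CD11c (chromosome 7 from 128129526 to 128150657 bp), stood at 6.77, 7.93 and 12.8 CPM and 299, 365 and 292 CPM (change 5.01, SE 0.26, adjusted p = 3.4e-08). Gpnmb, a glycoprotein of lysosomes under lipid load (chromosome 6 from 49036518 to 49058182 bp), stood at 71.4, 61.9 and 27.3 CPM and 1721, 2028 and 1249 CPM (change 5.02, SE 0.43, adjusted p = 1.3e-06). In these 3 genes the highest ND_WT library lay more than 10 times below the lowest HFD_WT library. Mmp12, the macrophage elastase gene, rose from 20.0 ± 2.88 to 782 ± 148 CPM, Atp6v0d2, a proton pump subunit gene of macrophages and osteoclasts, from 8.06 ± 2.79 to 345 ± 25 CPM, and Spp1, the osteopontin gene, from 5.92 ± 6.28 to 100.4 ± 12.8 CPM. Of the members that did not rise, Lpl and Cd36 are abundant in adipocytes, Acp5, the tartrate-resistant acid phosphatase gene, fell from 452 ± 60.7 to 194 ± 17.5 CPM, and Lpl was called lower (-0.55, adjusted p = 0.028). The call of Lpl was lost when any 1 of the 6 libraries other than ND_WT replicate 3 was left out (-0.49 to -0.59, adjusted p up to 0.092), without a filter (-0.55, adjusted p = 0.46) and in the WT libraries alone (-0.55, adjusted p = 0.072).

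Of 30 lysosome genes 28 were higher and none lower (median 1.5). Their summed level was 8248 to 10496 CPM in ND_WT and 26242 to 28863 CPM in HFD_WT, with the macrophage sum higher in the same libraries, and the part of macrophages in it was not tested. The cathepsin gene Ctss, of antigen-presenting cells, rose from 95.2 ± 12.9 to 1187 ± 82.4 CPM (change 3.63, SE 0.19, adjusted p = 3.5e-08), Lgmn, the asparaginyl endopeptidase legumain, from 107 ± 3.02 to 762 ± 44.6 CPM (change 2.82, SE 0.12, adjusted p = 1.3e-08), and Gusb, β-glucuronidase, from 82.7 ± 24.5 to 418 ± 28.6 CPM. Lysosomal genes are known to share a promoter element read by TFEB and related factors, with the core CACGTG. This core was searched on both strands from 250 bases before to 50 bases after the RefSeq start (GRCm38.p6) of the genes with an entry in the promoter table, whose start can differ from the outermost end of the gene. It was present for 8 of 21 lysosome genes (38.1%) and for 1365 of 12153 tested genes (11.2%); it was in 9.82% of 1528 genes higher and 10.9% of 548 genes lower by at least 2-fold. The 200 bases before the start are shown for the 2 holders of the core with the largest diet changes, with the core in capitals. They are Lgmn (chr12:102439093-102439292, minus strand) and Ctsa (chr2:164833573-164833772, plus strand), each read 5′ to 3′ on the gene's strand. Each has 2 promoter windows, of which that with the core is shown. The holders not shown had log2 changes from -0.01 to 1.73, so not all of them rose. Ctsa, chosen for its motif after its values were seen and encoding the protective protein of lysosomal galactosidase and neuraminidase, went from 229 ± 32.6 to 762 ± 48.0 CPM (change 1.74, SE 0.11, adjusted p = 1.5e-07).
Lgmn: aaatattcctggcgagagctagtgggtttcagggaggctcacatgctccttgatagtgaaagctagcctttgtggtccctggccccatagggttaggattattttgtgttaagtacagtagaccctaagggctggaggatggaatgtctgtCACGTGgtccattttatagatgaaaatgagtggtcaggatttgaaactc
Ctsa: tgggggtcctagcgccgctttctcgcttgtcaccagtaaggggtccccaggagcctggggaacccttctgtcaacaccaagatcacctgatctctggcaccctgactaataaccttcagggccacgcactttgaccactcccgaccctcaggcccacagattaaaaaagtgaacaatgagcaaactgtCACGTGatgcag
The core begins 49 bases before the start in Lgmn and 12 bases before it in Ctsa. A match of letters in the window is a description and was not tested as a binding site.

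Chemokine genes, which recruit leukocytes, were higher in 24 of 28 tested members and lower in none (median 1.70). Ccl2, the monocyte attractant gene (chromosome 11 from 82035577 to 82037452 bp), stood at 2.19, 2.17 and 3.74 CPM and 22.1, 23.8 and 16.7 CPM (change 2.57, SE 0.19, adjusted p = 4.0e-07). All HFD_WT libraries lay above the ND_WT libraries. Cxcl14 rose from 2.39 ± 0.489 to 27.6 ± 2.73 CPM and Cxcr4, the receptor for Cxcl12, from 6.25 ± 3.11 to 51.1 ± 6.25 CPM.

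Of 26 tested cytokine and inflammasome genes 21 were higher and none lower (median 1.07); Il6 and Ifng did not reach the filter. Tnf, which encodes tumour necrosis factor (chromosome 17 from 35199367 to 35202007 bp), was low, with 0.334, 0.692 and 0.457 CPM in ND_WT and 1.91, 2.21 and 3.38 CPM in HFD_WT (change 1.21, SE 0.18, adjusted p = 0.00014), and its groups did not overlap. The largest rise was in Il1rn, which encodes the antagonist of the interleukin-1 receptor, from 2.22 ± 1.34 to 49.0 ± 12.2 CPM (change 4.01, SE 0.40, adjusted p = 4.7e-06). Tnfrsf1b, a receptor gene for tumour necrosis factor, rose from 35.6 to 161 CPM and Casp1, which encodes the inflammasome caspase, from 16.3 to 77.5 CPM. Among Toll-like receptors and their adaptors 16 of 19 were higher (median 1.08). The endosomal receptor genes Tlr13 and Tlr8, which sense microbial and single-stranded RNA, rose from 7.23 ± 1.87 to 161 ± 10.6 CPM and from 10.7 ± 0.350 to 144 ± 11.3 CPM, and Tlr1, a surface receptor for lipopeptides, from 3.12 ± 0.674 to 45.3 ± 2.36 CPM.

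Complement genes were higher in 15 of 18 and lower in 3: Cfd, C2 and Masp1. The receptor gene C3ar1 rose from 22.9 ± 0.114 to 234 ± 17.6 CPM, C5ar1 from 18.6 ± 2.14 to 138 ± 14.2 CPM, and the macrophage-made C1qb from 134 ± 28.7 to 799 ± 74.9 CPM. Cfd, of the alternative pathway, and C1qb, of the classical pathway, thus changed in opposite directions. Of 11 tested acute-phase genes 4 were higher and 4 lower, 36.4% each, beside 37.8% higher and 20.3% lower over all genes. Saa3, the serum amyloid A gene of mouse fat (chromosome 7 from 46711998 to 46719615 bp), stood at 3.67, 11.0 and 11.0 CPM and 60.5, 58.5 and 30.7 CPM (change 2.48, SE 0.53, adjusted p = 0.0018), and Hp, the haptoglobin gene, rose from 2691 ± 209.9 to 5657 ± 408 CPM. The orosomucoid genes Orm3 and Orm1, which are near-identical copies whose reads can be confused, were lower (log2 changes -4.34 and -0.82).

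Interferon response genes showed a smaller difference, 13 of 24 higher and none lower (median 0.51). The share higher was 54.2%, beside 37.8% of all genes. Irf8, which directs myeloid development, rose from 13.7 ± 1.86 to 84.1 ± 2.62 CPM and Oas1a from 7.80 ± 0.158 to 33.5 ± 12.3 CPM, while the means of Ifi27l2a were 746 CPM in ND_WT and 469 CPM in HFD_WT and it was not called (change -0.62, adjusted p = 0.0505). Ifi27l2a was called lower with TMM scaling (-0.79, adjusted p = 0.017), in edgeR (-0.84, 0.012) and DESeq2 (-0.83, 0.0012), with the stricter filter (0.047), without ND_WT replicate 3 (-0.94, 0.0016) and without HFD_WT replicate 3 (-0.79, 0.031). In antigen presentation, 14 of 16 class I genes were higher (median 0.60), Psmb8, an immunoproteasome subunit gene, by 1.14. Of 19 class II and dendritic cell genes 14 were higher and 3 lower (median 1.29), 73.7% and 15.8% beside 37.8% and 20.3% of all genes. The class II chain gene H2-Aa rose from 278 ± 69.3 to 1086 ± 179 CPM, H2-DMb1, which loads peptides, from 29.7 ± 10.6 to 173 ± 8.81 CPM, and Cd83 from 10.7 ± 0.950 to 119.7 ± 21.6 CPM, while Cd209a, of monocyte-derived dendritic cells, fell from 6.32 ± 2.57 to 2.36 ± 0.229 CPM.

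Of 20 tested T and NK cell genes 16 were higher and none lower (median 1.55), and their summed level was 30.7 to 44.9 CPM in ND_WT and 193 to 263 CPM in HFD_WT. A filter that asked for 1 CPM in 6 libraries kept only 8 of these calls, as fewer members passed it. Under the main filter a gene near absent in ND_WT could enter through its level in HFD_WT alone. Such a member could hardly be called lower, so the split of calls in this list depends in part on the filter. The same holds for low members of other lists. Cd3e, a chain of the T cell receptor complex (chromosome 9 from 44998735 to 45009663 bp), stood at 0.668, 0.784 and 0.867 CPM in ND_WT and 5.43, 1.77 and 6.45 CPM in HFD_WT (change 1.53, SE 0.28, adjusted p = 0.00062), so the ND_WT values rest on few reads. Cd8a, of cytotoxic T cells, rose from 0.276 ± 0.256 to 6.39 ± 3.48 CPM and Cd4 from 1.20 ± 0.439 to 8.95 ± 4.50 CPM. Il7r, the interleukin-7 receptor gene of T cells and innate lymphoid cells, rose from 4.02 ± 0.226 to 113 ± 5.46 CPM (change 4.51, SE 0.24, adjusted p = 4.4e-08). Of 11 tested B and plasma cell genes 7 were higher (63.6%, beside 37.8% of all genes) and 1 lower (9.1%, beside 20.3%). Only 3 or 4 were higher when ND_WT replicate 1, HFD_WT replicate 1 or HFD_WT replicate 3 was left out or when the WT libraries were fitted alone. The summed level of the list was 312, 449.6 and 226 CPM in ND_WT and 514, 264 and 497 CPM in HFD_WT, which overlap. Jchain, which links antibody monomers, stood at 5.2, 46.0 and 6.71 CPM and 157, 56.9 and 188 CPM (change 3.19, SE 0.69, adjusted p = 0.0018). Xbp1, a transcription factor gene that adipocytes express as well, fell (log2 change -0.66) and was a large part of that sum, at 285 ± 82 CPM in ND_WT and 175 ± 7.96 CPM in HFD_WT. Of 13 granulocyte and mast cell genes 10 were higher (76.9%, beside 37.8% of all genes) and 1 lower (7.7%, beside 20.3%). The mast cell protease genes Cpa3, Mcpt4 and Tpsb2 rose from 11.5 to 51.7 CPM, from 13.8 to 57.4 CPM and from 12.2 to 50.9 CPM, and the neutrophil gene S100a8 from 1.61 to 14.7 CPM.

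**Figure D4:**
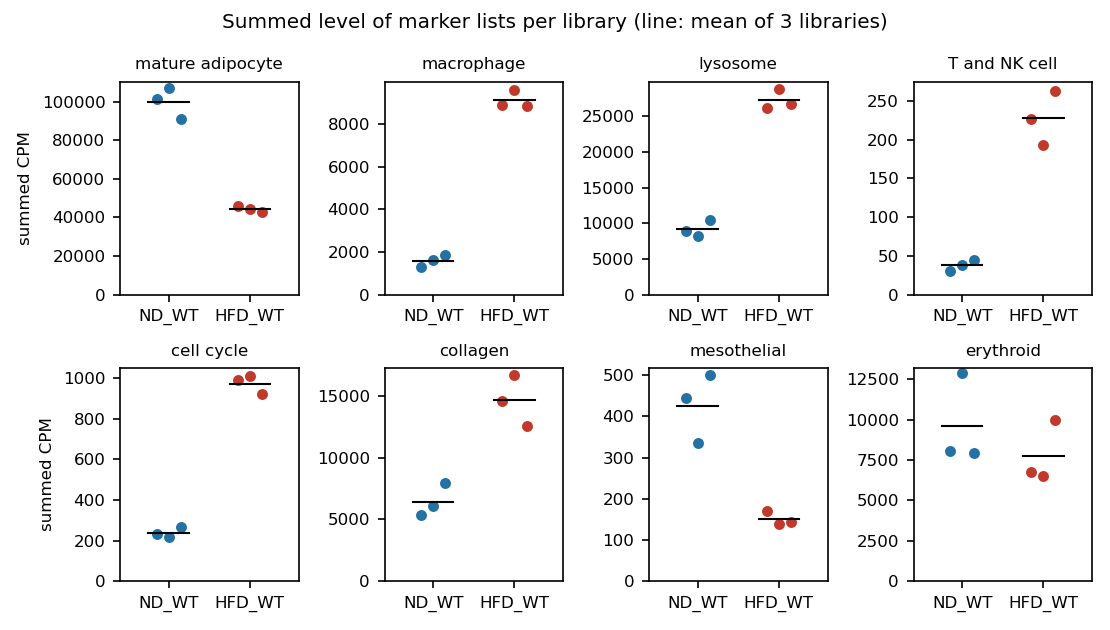
Summed CPM of the members of 8 marker lists in each WT library, with a line at the mean of 3 libraries per group. Macrophage, lysosome, T and NK cell, cell cycle and collagen sums lie higher and adipocyte and mesothelial sums lower in all HFD_WT libraries, and the erythroid sums of the groups overlap.

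All 24 tested cell cycle genes were higher on HFD, with a median of 2.15 (1.54 to 2.29 over the other settings tried). Mki67, the standard marker of dividing cells (chromosome 7 from 135689784 to 135716450 bp), stood at 11.2, 8.48 and 7.99 CPM in ND_WT and 74.3, 69.0 and 71.8 CPM in HFD_WT (change 2.84, SE 0.17, adjusted p = 7.7e-08). Each HFD_WT library lay more than 6 times above the highest ND_WT library. Top2a, the topoisomerase that untangles sister chromatids, rose from 6.00 ± 0.697 to 62.4 ± 3.86 CPM (change 3.18, SE 0.17, adjusted p = 3.6e-08), and Tk1, of nucleotide salvage in S phase, from 2.03 ± 0.280 to 22.8 ± 2.14 CPM. The list also holds cell cycle inhibitors, and 1 of them, Cdkn1a, which encodes p21, rose from 24.7 ± 23 to 141 ± 24.1 CPM (change 2.81, SE 0.46, adjusted p = 0.00024). Promoters of mitotic genes are known for the cell cycle homology region TTTGAA beside CCAAT boxes. TTTGAA, on either strand, was in 5 of 20 cell cycle promoters (25%) and in 15.1% of all genes' promoters. It was in 19.9% of genes higher and 16.1% of genes lower by at least 2-fold. CCAAT was in 14 of 20 cell cycle promoters (70%) and in 42.5% of all, with 42.4% of genes higher and 46.2% of genes lower by at least 2-fold. Of the members that hold TTTGAA or its reverse complement TTCAAA, the 2 with the largest diet changes are shown, so they were picked on that change. Both hold it at 2 positions, in capitals in the 200 bases before the starts: Top2a (chr11:99024190-99024389) and Mki67 (chr7:135716380-135716579), both on the minus strand.
Top2a: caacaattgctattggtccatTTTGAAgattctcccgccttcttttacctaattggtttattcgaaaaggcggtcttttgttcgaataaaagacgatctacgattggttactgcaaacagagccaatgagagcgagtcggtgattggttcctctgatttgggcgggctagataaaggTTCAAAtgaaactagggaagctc
Mki67: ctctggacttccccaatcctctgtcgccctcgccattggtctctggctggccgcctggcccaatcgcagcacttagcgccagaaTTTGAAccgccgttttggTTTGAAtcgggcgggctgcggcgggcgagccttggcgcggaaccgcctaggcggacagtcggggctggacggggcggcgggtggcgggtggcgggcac
The motif begins 179 and 23 bases before the start of Top2a and 116 and 98 bases before that of Mki67.

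Fibrous matrix genes were higher. Of 18 tested collagen genes 16 were higher and none lower (median 1.51), and their summed level was 5335 to 7932 CPM in ND_WT and 12603 to 16710.5 CPM in HFD_WT. Col1a1, a chain of the main fibrillar collagen (chromosome 11 from 94936224 to 94953042 bp), stood at 207, 240.5 and 227 CPM in ND_WT and 653, 833 and 516 CPM in HFD_WT (change 1.54, SE 0.18, adjusted p = 2.1e-05). Col6a3, a chain of the collagen VI microfibrils that enclose adipocytes, stood at 88.8, 116 and 106 CPM and 414, 536 and 387 CPM (change 2.09, SE 0.18, adjusted p = 1.7e-06). The diets did not overlap in either gene. Col12a1, which decorates fibrils under tension, rose from 5.62 ± 2.54 to 44.7 ± 4.85 CPM. Of 23 other matrix and crosslinking genes 19 were higher and 1, Fmod, lower. Among them Lum, the collagen-binding lumican gene, rose from 67.2 ± 8.26 to 485 ± 65.0 CPM (change 2.83, SE 0.11, adjusted p = 1.0e-08), and Ccn1 from 35.9 ± 20.7 to 145 ± 42.1 CPM.

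Of 20 tested protease and inhibitor genes 15 were higher and 1 lower. On the protease side Adam8, of leukocytes, rose from 13.8 ± 3.71 to 301 ± 28.6 CPM, Mmp3 from 1.61 ± 0.885 to 34.0 ± 4.27 CPM and Mmp13 from 0.245 ± 0.266 to 4.86 ± 0.890 CPM. On the inhibitor side Timp1 (chromosome X from 20870166 to 20874737 bp) stood at 2.58, 2.31 and 7.48 CPM and 35.3, 36.9 and 28.3 CPM (change 2.88, SE 0.31, adjusted p = 9.5e-06), while Timp4, the adipocyte-rich inhibitor gene, fell from 291 ± 164 to 38.4 ± 3.72 CPM (change -2.76, SE 0.28, adjusted p = 4.9e-06). Timp1 lies within Syn1, at 1.19 and 3.08 CPM in ND_WT and HFD_WT, and Timp4 within Syn2, at 14.9 and 4.90 CPM. Of 21 stromal and progenitor genes 13 were higher and 2 lower (5 lower with TMM scaling), 61.9% and 9.5% beside 37.8% and 20.3% of all genes. Fap, of activated fibroblasts, rose from 8 ± 2.36 to 25.2 ± 1.71 CPM and Icam1 from 20.7 ± 1.5 to 50.7 ± 4.84 CPM. Gsn, the gelsolin gene, which cuts actin filaments and was among the 10 genes with the most reads in both groups, fell from 13886 ± 527 to 6148 ± 311 CPM (change -1.18, SE 0.21, adjusted p = 0.00045).

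Among 25 genes of endothelial and mural cells 6 were higher (24%) and 7 lower (28%), beside 37.8% and 20.3% of all genes. Their median was -0.06 (-0.22 with TMM scaling), and 4 were lower without ND_WT replicate 1 or HFD_WT replicate 2. Angpt2, which loosens vessels for sprouting, rose from 7.02 ± 4.95 to 27.4 ± 1.14 CPM, and Rgcc fell from 202 ± 14.7 to 94.1 ± 2.76 CPM. Mesothelial genes, of the cell layer that covers the pad, were lower in 6 of 11 tested members (54.5%, beside 20.3% of all genes) and higher in none (median -1.39). Their summed level was 335 to 499.7 CPM in ND_WT and 139.7 to 169 CPM in HFD_WT. Krt19 fell from 27.9 ± 6.34 to 6.95 ± 0.585 CPM and Upk3b from 133 ± 25.7 to 41.3 ± 6.25 CPM. None of the 7 erythroid genes was called, and their sums, 7941 to 12891 CPM and 6503 to 9959 CPM, overlapped. Skeletal muscle and brown fat genes were low, with sums of at most 84.5 and 25.8 CPM in any of the 6 libraries; Zic1, of brown fat, had no read and Ucp1 did not reach the filter.

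Of 22 oxidase and antioxidant genes 13 were higher and 6 lower (59.1% and 27.3%, median 0.59), beside 37.8% and 20.3% of all genes. With TMM scaling the counts were 10 and 7. All 6 tested genes of the phagocyte NADPH oxidase with its regulator Rac2 rose, with Cybb, the catalytic subunit gene, going from 37.7 ± 7.01 to 339.9 ± 12.5 CPM (change 3.15, SE 0.17, adjusted p = 4.6e-08). The members that fell are antioxidant enzyme genes, among them Gpx3, of the secreted glutathione peroxidase, from 843 ± 208 to 355 ± 35.7 CPM and Sod1, of the cytosolic superoxide dismutase, from 534 ± 94.4 to 253 ± 10.4 CPM. Of 19 genes of the unfolded protein and heat shock responses 10 were higher and 3 lower (52.6% and 15.8%, median 0.37), beside the same shares of all genes. Atf3, a stress-induced transcription factor gene, rose from 9.02 ± 4.91 to 161 ± 12.6 CPM (change 4.12, SE 0.41, adjusted p = 4.4e-06) and Asns, the asparagine synthetase gene, fell from 88.5 ± 22.1 to 31.5 ± 2.17 CPM.

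Of 16 clock genes 3 were higher and 10 lower (median -0.83), 18.8% and 62.5% beside 37.8% and 20.3% of all genes. The 3 that rose, Arntl, Npas2 and Clock, encode the activators of the oscillator (log2 changes 1.67, 1.05 and 0.79). Nr1d1, the repressor of Arntl, stood at 291, 301 and 214 CPM in ND_WT and 75.4, 76.4 and 82.4 CPM in HFD_WT (change -1.75, SE 0.15, adjusted p = 1.3e-06). Per3, a feedback repressor gene, and Dbp, an output gene of the clock, fell too (log2 changes -1.65 and -1.56). These genes cycle over the day, the hour of collection of each group was not given in the sources used here, and its part in the difference was not tested. Nr1d1 overlaps Thra, at 115 and 53.0 CPM in ND_WT and HFD_WT, and Dbp overlaps Sphk2, at 103 and 58.5 CPM.

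Glycolytic and hypoxia genes were higher in 13 of 24 (54.2%, beside 37.8% of all genes) and lower in 6 (25%, beside 20.3%). With TMM scaling 10 were higher and 6 lower. Hk3, the hexokinase of myeloid cells, rose from 5.70 ± 1.16 to 88.6 ± 5.88 CPM and Pfkfb4 from 17.1 ± 9.57 to 58.2 ± 4.78 CPM. The angiogenic factor gene Vegfa fell from 264 ± 73.2 to 72.0 ± 2.04 CPM (change -1.82, SE 0.23, adjusted p = 3.6e-05) and Bnip3, a mitophagy receptor gene, from 866 ± 65.9 to 277 ± 13.5 CPM. Of 16 tested thermogenic genes 7 were higher (43.8%) and 5 lower (31.2%), beside 37.8% and 20.3% of all genes, and the sign of their median depended on the processing (0.13, and -0.13 to 0.29 over the other settings). Ucp2, the uncoupling protein family member of macrophages, rose from 181 ± 19.8 to 884 ± 84.4 CPM, and Cidea fell from 9.59 ± 1.69 to 3.88 ± 1.23 CPM. Ribosomal protein genes were higher by small amounts, 16 of 18 with a median of 0.42 (11 of 18 and 0.26 with TMM scaling), and Rps3 showed the largest change, 0.58.

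The diet contrast in TKO fat was set against that in WT fat by an interaction term. In TKO 2525 genes (16.2%) were higher and 921 (5.9%) lower on HFD, 214 (1.37%) and 130 (0.833%) of them by at least 2-fold. The difference between the diet effects, WT minus TKO, passed the test of the interaction for 4476 genes (28.7%), 2926 (18.8%) of them with a value above 0 and 1550 (9.94%) below 0 (29.0% with TMM scaling). Of a panel of 24 genes that stand for the groups described above, 21 had a different diet effect in the genotypes.

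**Figure D5:**
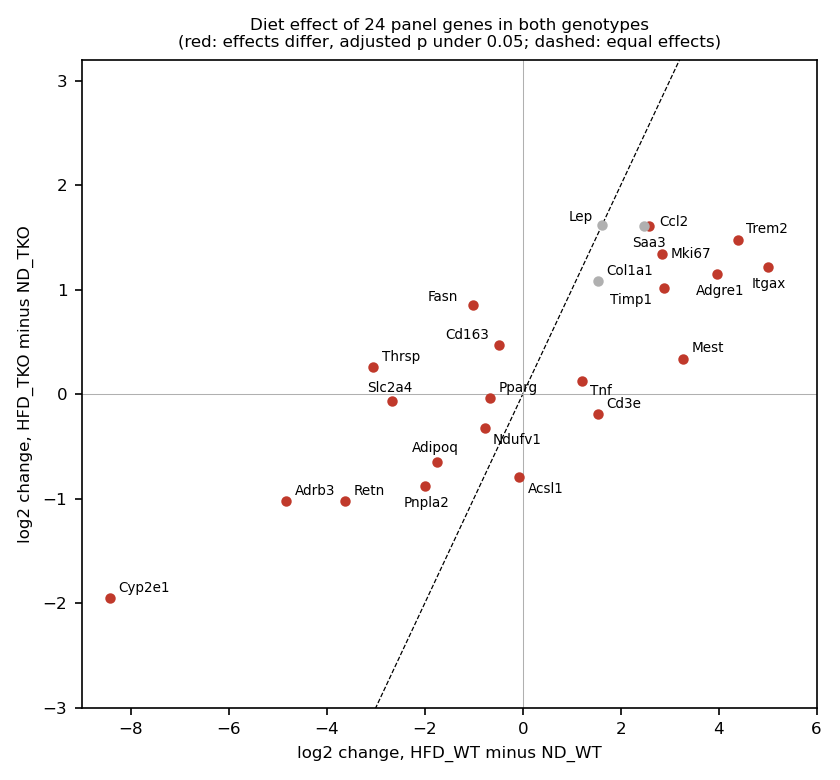
Log2 change on HFD of the 24 panel genes in WT (x axis) and in TKO (y axis), on the log2(CPM + 1) scale with axes of different range, 3 libraries per group; the dashed line marks equal effects and red points the 21 genes whose effects differ. Most points lie nearer to 0 on the TKO axis than on the WT axis, and Lep lies on the dashed line.

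Of the 24 mature adipocyte genes 14 passed the test of a different diet effect, Slc2a4, Adrb3 and Retn among them. Slc2a4 went from 156 ± 9.92 to 151 ± 28.1 CPM in TKO (log2 change -0.06, adjusted p = 0.79), and the effects differed by -2.60 (SE 0.19, adjusted p = 7.8e-06). Adrb3 went from 583 ± 57.9 to 297 ± 89.3 CPM (-1.02, adjusted p = 0.010; difference -3.81, adjusted p = 1.6e-05), and Cyp2e1 from 3480.3 ± 813 to 887 ± 133 CPM (-1.95; difference -6.47, adjusted p = 2.1e-05). Fasn took opposite signs, -1.01 in WT and 0.85 in TKO (adjusted p = 0.036), a difference of -1.86 (adjusted p = 0.0028). Adgre1 and Trem2 rose in both genotypes and by more in WT. Adgre1 rose by 1.15 in TKO (difference 2.81, adjusted p = 2.1e-05) and Trem2 by 1.48 (difference 2.91, adjusted p = 0.00046). Leptin rose by 1.62 in TKO, and its difference of 0.01 did not pass (SE 0.66, adjusted p = 1), nor did those of Col1a1 (0.46, SE 0.26, adjusted p = 0.22) and Saa3 (0.87, SE 0.75, adjusted p = 0.43).

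For cholesterol synthesis, in TKO 18 of its 20 genes were higher, with a median of 1.02, and 4 of the 20 passed the test of a different diet effect, beside 28.7% of all genes. In the mature adipocyte list 14 of 24 genes passed it (median -0.40 in TKO), in the macrophage list 19 of 20 (median 0.78), in the lysosome list 25 of 30 (median 0.25), in the cell cycle list 21 of 24 (median 0.67) and in the collagen list 5 of 18 (median 0.76). The median over all tested genes in TKO was 0.07.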

How the data were processed

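RNA of epididymal fat was sequenced in 12 libraries, 4 groups of 3. The authors deposited 1 table of CPM per gene and library. The submitters' processing notes name, without settings, DESeq2, featureCounts 2.0.0, STAR 2.7.3a and the mouse build mm10, and strand was not given, so reads of overlapping genes may be shared. The deposited CPM were whole reads, offset by 0.01 read, in 100% of values at a tolerance of 0.05 read. They were turned back into counts for the alternatives and the depths. Rows without a symbol, 3 of 25232, held 0.0313% to 0.0679% of reads and were left out. No pair of libraries within a group agreed within sampling noise (chi-square per degree of freedom 6.04 to 69.7). Genes with at least 0.5 CPM in at least 3 libraries were kept, 15597 in all, of which 89 share their values in every library with another gene. Positions are those of RefSeq on GRCm38.p6 (mm10), found for 25176 of the listed genes, and promoters are from the RefSeq table of that build.

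The main test was limma 3.58.1 (R 4.3.3) with its trend option on log2(CPM + 1), 1 mean for each of the 4 groups and 8 residual degrees of freedom, with Benjamini-Hochberg adjustment over all tested genes. On this scale the change of low genes is understated. The interaction, WT minus TKO, came from the same fit. Because the table holds CPM, edgeR 4.0.16 and DESeq2 1.42.0 on the recovered reads served as alternatives, beside TMM scaling, other pseudocounts (0.5 and 5), other filters, the WT libraries alone, a replicate block and leaving out each library. On simulated counts the main test recovered 44.8% of 67 genes changed 1.5-fold, 100% of those changed 2-fold or 4-fold, and 4.12% of its calls were false. The simulation changed only a small part of the 15597 genes, equally up and down and all at 5 CPM or more on average. In the data 58.1% of genes were called, so these rates do not cover such a broad change or genes of low level.

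The lists (795 of 847 genes tested), the panel of 24 genes and the rule for named genes were chosen with earlier results of these data known. The rule took the panel, the 12 largest rises and falls among called genes whose groups did not overlap and whose values no other gene shares, the 10 genes with the most reads in each group and, of each list, up to 6 called genes with the largest changes, up to 2 uncalled genes and the called genes that moved against most of the list. The text uses 1 other gene, Ctsa, for its promoter. Genes that only overlap a named gene are given with their values as context. p-values measure the spread between 3 libraries per group, called biological replicates in the protocol. A few genes that the rule names are not reported here. Positions of reads, isoforms and allele-specific reads were not analysed here.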

Additional observations from a re-analysis of the deposited data

Results flagged for a closer look

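The diet effect differed between the genotypes, by limma's interaction term, in 21 of the 24 panel genes, beside 28.7% of all tested genes. The panel was chosen with earlier results of these data known. The values are WT minus TKO differences of log2 changes, and their cause was not tested. Among adipocyte genes the difference was -1.11 for Adipoq (adjusted p = 0.0032), -2.60 for Slc2a4, -3.81 for Adrb3, -2.61 for Retn (adjusted p = 1.3e-05), -0.62 for Pparg (adjusted p = 0.0087) and -6.47 for Cyp2e1. In lipid and mitochondrial genes it was -1.86 for Fasn, -3.31 for Thrsp (adjusted p = 2.9e-06), -1.12 for Pnpla2 (adjusted p = 0.0019) and -0.46 for Ndufv1 (adjusted p = 0.0025). Thrsp fell in WT by 3.05 on the log2 scale and went from 847 ± 137 to 1007 ± 42.9 CPM from ND_TKO to HFD_TKO (change 0.26, adjusted p = 0.22). Acsl1 differed by 0.72 (adjusted p = 0.032), with a change of -0.07 in WT that was not called and -0.79 in TKO (adjusted p = 0.0060).

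Among macrophage and immune genes the difference was 2.81 for Adgre1, 3.79 for Itgax (adjusted p = 3.0e-05), 2.91 for Trem2, 0.96 for Ccl2 (adjusted p = 0.018), 1.09 for Tnf (adjusted p = 0.0085) and 1.72 for Cd3e (adjusted p = 0.0073). Cd163 differed by -0.95 (adjusted p = 0.044), from -0.48 in WT and 0.47 in TKO, neither of which passed. It was 1.86 for Timp1 (adjusted p = 0.0081), 1.51 for Mki67 (adjusted p = 0.00071) and 2.94 for Mest (adjusted p = 0.0050), with a change of 0.34 for Mest in TKO that did not pass (adjusted p = 0.64). The differences of Acsl1, Cd163 and Tnf were lost under some alternatives. Acsl1 did not pass with TMM scaling (adjusted p = 0.081), in edgeR (0.065), without filter (0.093) or without HFD_WT replicate 1 (0.082) or 2 (0.066). Cd163 did not pass without filter (adjusted p = 0.07) or when any 1 of the 6 WT libraries other than ND_WT replicate 1 was left out (up to 0.094), and Tnf did not in edgeR (0.062) or DESeq2 (0.057).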

How the results depend on the processing

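Over the 15 alternatives, 175 of the 179 called genes named in the text kept their direction and their call wherever they could be tested. The exceptions, Lep, Scd1, Lpl and Atp5g1, are given with their values above. Many named genes were picked for large changes in the main test, so most were bound to keep their call. The count does not describe called genes at large. Genes that the rule names and the text does not report lie outside this count, and some of their calls were lost with TMM scaling. For Acsl1, not called in WT, the change went from -0.07 to 0.02 without ND_WT replicate 1 or 2 and to 0.00 without HFD_WT replicate 3. The WT minus TKO difference of Lep, 0.01 and not called, became -0.07 with TMM scaling, -0.46 in edgeR and DESeq2, -0.23 and -0.47 without ND_WT replicates 1 and 2, 0.72 without ND_WT replicate 3, and -0.02 without HFD_WT replicate 1 or 2, and none of these passed. Scaling moved the balance of directions: edgeR called 4442 genes higher and 4447 lower and DESeq2 4520 and 4390. With a pseudocount of 5, the counts at 2-fold or more were 1238 genes higher and 407 lower, while edgeR and DESeq2, which also differ in scaling and test, called 1475 and 1452 lower by at least 2-fold; TMM scaling alone gave 935. Leaving out 1 library gave 5202 to 5953 genes higher and 2645 to 3185 lower.

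Replicate numbers recur across the groups. A fit with the replicate number as a block called 5781 genes higher and 3140 lower and, of the named genes, changed the call of Cd163. The numbers did not pair the libraries: correlations of the deviations of same-numbered WT libraries from their group means were -0.36, -0.0207 and -0.207.

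Genes under about 1 CPM rest on few reads, so their changes are shrunk by the pseudocount. A 1.5-fold change was often missed on simulated counts with 3 libraries per group, in which only more abundant genes were changed.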
